A study of Mus musculus with 5 samples.

Results

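The 9 transcription factor genes Hnf4a, Cebpa, Cebpb, Foxa1, Foxa2, Foxa3, Onecut1, Prox1 and Nr5a2, known as regulators of hepatocyte identity, were followed through regenerating and juvenile mouse liver. They were chosen by symbol from the 31053 genes counted, and the rule uses no level of theirs. Their levels were read in hepatocytes, taken as barcodes with at least 5000 unique molecular identifiers (UMIs, each standing for 1 captured transcript), 10% to 30% mitochondrial UMIs and at least 1% of UMIs from Alb, Apoa1 and Ttr together. This rule kept 925 of 2639 barcodes with 5000 UMIs or more in the adult control library. It kept 1170 of 2985 at 24 h, 719 of 2549 at 48 h and 771 of 3624 at 96 h after partial hepatectomy (PHx, removal of part of the liver), and 2106 of 2907 at postnatal day 14 (P14).

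All libraries came from C57BL/6J mice, a standard inbred strain, with no transgene or allele named. Liver cells were freed by a 2-step perfusion, depleted of dead cells and turned into droplet libraries with a 10x v3 kit, which tags the 3′ ends of transcripts. The 3 operated groups were adults of 8 weeks that had lost 2/3 of the liver, the P14 mice had no operation, and the adult control, also of 8 weeks, was taken as unoperated, although a protocol text of the labels counts that sample among the operated ones. Each group was 1 library, sex and number of mice are not given in the labels, and a lane code of 2 for the adult control against 1 for the other 4 libraries cannot be told apart from the control group. No test between groups was therefore possible. Levels are given as CPM, the summed count over the UMI total without the 13 mitochondrial genes, scaled to 1000000, and every interval is a 95% interval of counting error only, which says nothing of the spread between animals.

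Hepatocyte identity is held by a network in which these factors bind their own and each other's promoters together with a large set of liver genes. The nuclear receptors HNF4A and NR5A2 activate genes of lipid, bile acid and clotting factor metabolism, C/EBP alpha and C/EBP beta are paired bZIP factors, and FOXA proteins are pioneer factors that open liver chromatin. ONECUT1 (HNF6) and PROX1 act in liver and bile duct development and stay on in adult hepatocytes. C/EBP alpha is known as a restraint on hepatocyte division, and C/EBP beta as a factor of the acute phase response and of liver regeneration.

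The 5 libraries held 80927744 to 136110607 UMIs, and their hepatocytes 13316829 to 64576753 UMIs without mitochondrial genes. Median depth ran from 18527 UMIs per hepatocyte in the adult control to 38922.5 in P14, and the median mitochondrial share from 20.6% to 26.0%. The median share of Alb, Apoa1 and Ttr was 2.86% in the adult control, 2.10%, 2.62% and 5.77% in the 24 h, 48 h and 96 h libraries, and 11.2% in P14. The hepatocyte label was checked on markers outside the rule: 5 of 5 matched markers (Apob, Cps1, Serpina1c, Fgb and Ahsg) were present in every library, none under 1866 CPM. The summed level of markers of other cells ran from 4.49 to 24.8 CPM for 14 lymphoid genes, 12.5 to 27.9 for 11 endothelial genes and 4.42 to 46.6 for 7 stellate genes. The 5 erythroid genes were higher, at 628 CPM in the adult control, 450, 680 and 298 in the 24 h, 48 h and 96 h libraries, and 106 in P14, led by the globin gene Hbb-bs. The 7 cholangiocyte genes summed to 35.6, 102, 45.1, 188 and 47.3 CPM in the same order, led by Spp1 at 24 h (67.9 CPM) and 96 h (156 CPM), and Krt19 was at 0 in all but P14. The 12 myeloid genes summed to 28.3 CPM in the adult control, 110, 196 and 28.7 in the 24 h, 48 h and 96 h libraries, and 34.3 in P14. The 12 dissociation stress genes summed to 1509 CPM in the adult control against 1023 to 1165 in the others. Hspa8 led this list, at 1006 CPM in the adult control, 600, 479 and 411 in the 24 h, 48 h and 96 h libraries, and 832 in P14. Without Hspa8 the adult control was not the highest. Over all pairs of libraries, 3 hepatocyte barcodes were shared.

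Hepatocytes at 24 h and 48 h after PHx held much less Cebpa and more Cebpb transcript than the adult control, and also less Foxa1 and Onecut1. By 96 h, in the 771 hepatocytes kept, 7 of the 9 factors lay within 1.5-fold of the control, Onecut1 lay above it and Foxa1 below. The 1701 barcodes over the mitochondrial limit at 96 h are not part of this. Hnf4a (0.643) and Prox1 (0.660) were also past the line at 96 h among cells of 10% to 20% mitochondrial UMIs, and in barcodes with under 5%, described further on, Cebpb and Foxa3 alone lay within it. The share of all genes past the line was not computed for these sets of cells, so their counts have no background beside them. P14 hepatocytes had lower levels of 5 factors, Foxa1 above all. A gene was called at a 1.5-fold difference or more if it had 5 CPM in either library, which all 9 members had in each comparison. At 24 h the members split into 1 called higher and 3 called lower, where 38.9% of 9028 genes tested were called (20.1% higher and 18.8% lower). At 48 h the split was 1 higher and 6 lower, against 39.5% of all genes (18.5% higher and 21% lower). At 96 h it was 1 higher and 1 lower, against 21.8% (13.7% and 8.04%). In P14 it was 0 higher and 5 lower, against 48.2% (15.1% and 33%). The median ratio to the control over the members was 0.677, 0.590, 0.801 and 0.614 in the same order, beside 0.999, 0.943, 1.03 and 0.824 over all genes. The P14 values thus carry a shift of all genes of -0.28 on the log2 scale.

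**Figure D1:**
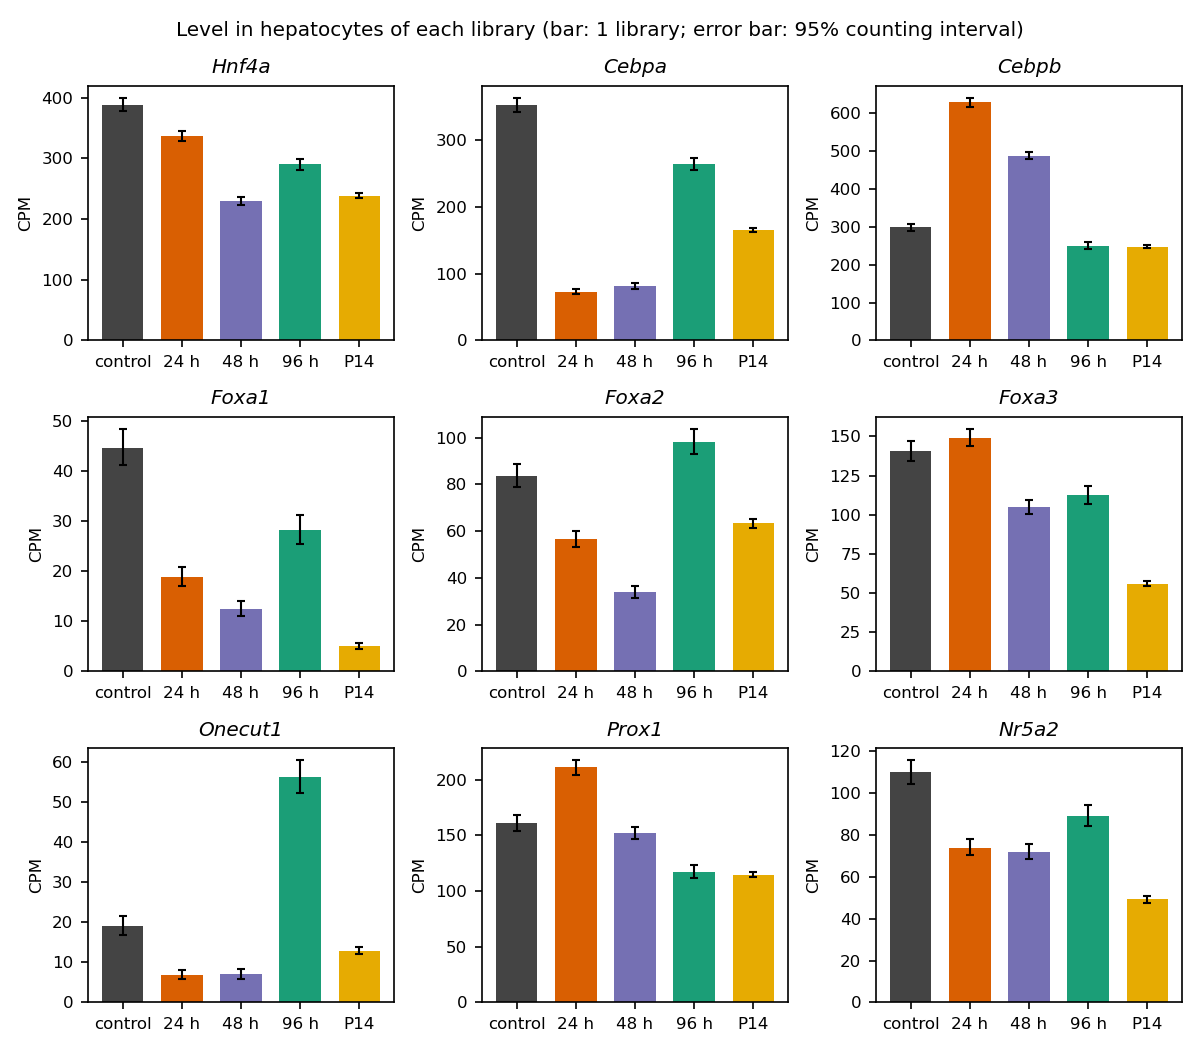
Level of each factor in hepatocytes (y axis, CPM) in the 5 libraries (x axis: adult control, 24 h, 48 h and 96 h after PHx, P14). Each bar is 1 library and each error bar its 95% counting interval. Cebpa dips to 72.5 and 81.2 CPM at 24 h and 48 h while Cebpb stands at 628 and 487, and Onecut1 peaks at 56.4 at 96 h.

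**Figure D2:**
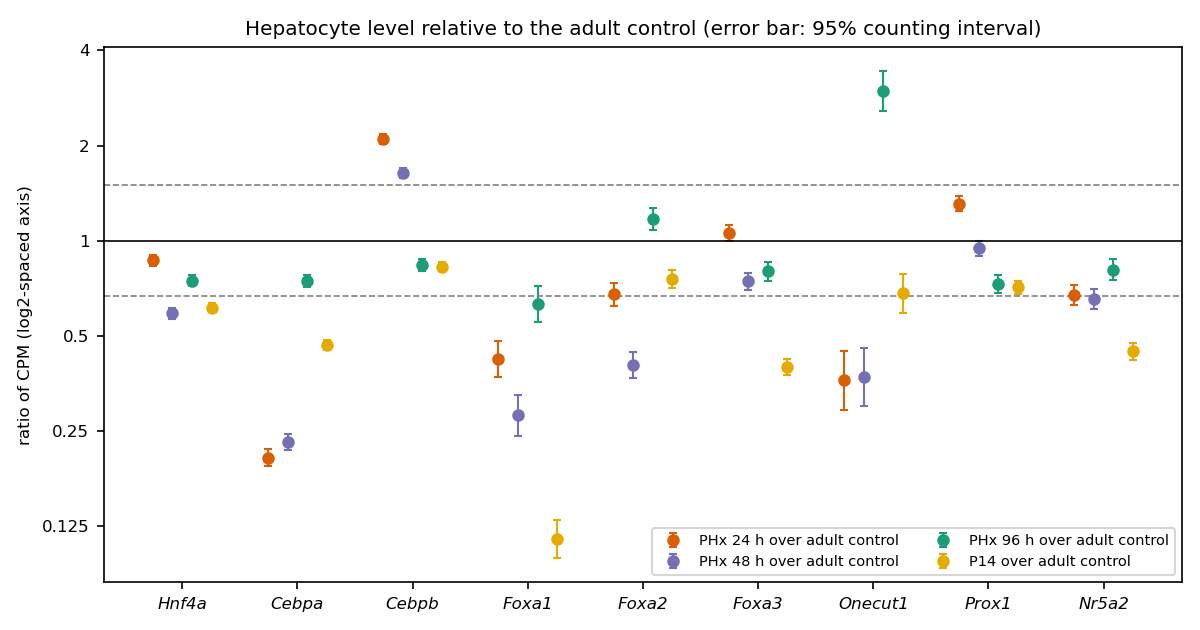
Ratio of each factor's CPM to the adult control (y axis, log2-spaced) for the 4 other libraries, with 95% counting intervals. Dashed lines mark 1.5-fold either way. The lowest point is Foxa1 in P14 at 0.114 and the highest is Onecut1 at 96 h at 2.97.

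Hnf4a, which encodes the nuclear receptor most central to the network, spans chr2:163506808-163572910 on the plus strand (GRCm38, GENCODE M21). Its level was 389 CPM in the adult control, 337, 230 and 291 in the 24 h, 48 h and 96 h libraries, and 239 in P14. The adult control was highest, and the intervals of P14 and 48 h overlapped at the low end. Against the control the ratio was 0.866 (0.835 to 0.898) at 24 h and 0.590 (0.567 to 0.614) at 48 h, of which the second was past 1.5-fold. The P14 ratio of 0.614 (0.594 to 0.633) was also past it but stood at 0.748 with TMM scaling, which removes a shift common to most genes, and at 0.811 among cells with at least 5% of UMIs from Alb, Apoa1 and Ttr. That gate kept 47 of 925 control hepatocytes and all 2106 of P14. An antisense gene, Hnf4aos, overlaps Hnf4a, and whether counting used the strand is not given in the sources used here. Hnf4aos had 13.4 CPM in the adult control, 9.53, 0.864 and 2.83 in the 24 h, 48 h and 96 h libraries, and 1.38 in P14, so both genes had their lowest levels at 48 h and in P14.

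RefSeq (GRCm38.p6) lists 2 start sites of Hnf4a, and both windows from 250 bases before to 50 bases after the start are shown because each holds a motif of another factor of the network. The upstream window is chr2:163506607-163506906 and the downstream window chr2:163546905-163547204, both on the plus strand. Capitals mark ATCAAT, a letter string typical of ONECUT sites, in the upstream window, and ATTAAC, the reverse complement of the HNF1 string GTTAAT, present at 2 places in the downstream window. Both strands were searched, and ATCAAT or ATCGAT occurred in 8.40% and GTTAAT in 7.10% of 32851 windows of the same length. The 3′ tags do not tell transcripts of these starts apart, so no level belongs to either window.
Hnf4a upstream start: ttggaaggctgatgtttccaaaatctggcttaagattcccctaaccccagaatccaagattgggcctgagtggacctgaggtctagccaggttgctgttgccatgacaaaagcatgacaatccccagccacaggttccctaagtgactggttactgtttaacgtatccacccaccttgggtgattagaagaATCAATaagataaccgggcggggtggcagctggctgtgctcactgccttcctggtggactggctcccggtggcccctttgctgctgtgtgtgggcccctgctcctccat
Hnf4a downstream start: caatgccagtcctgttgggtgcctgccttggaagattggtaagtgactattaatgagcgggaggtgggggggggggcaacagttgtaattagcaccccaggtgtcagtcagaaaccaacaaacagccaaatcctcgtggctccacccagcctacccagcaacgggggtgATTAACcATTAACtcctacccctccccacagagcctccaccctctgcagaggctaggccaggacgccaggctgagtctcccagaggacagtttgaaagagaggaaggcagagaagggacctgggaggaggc

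Nr5a2 encodes the nuclear receptor LRH-1, a regulator of bile acid and cholesterol genes, and spans chr1:136842571-136960448 on the minus strand. It stood at 110 CPM in the adult control, 73.9, 72.0 and 89.1 in the 24 h, 48 h and 96 h libraries, and 49.2 in P14. The adult control was highest and P14 lowest, and the 24 h and 48 h intervals overlapped. The 24 h library had a ratio to the control of 0.673 (0.625 to 0.724), the 48 h library of 0.655 (0.609 to 0.704) and P14 of 0.448 (0.421 to 0.476). The 48 h ratio lay just past the 1.5-fold line and was 0.695 with TMM scaling, whereas the P14 ratio stayed past it at 0.546.

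The C/EBP pair lay on opposite sides of the control at 24 h and 48 h. Cebpa spans chr7:35119293-35121928 and Cebpb chr2:167688915-167690418, both on the plus strand. Cebpa stood at 352 CPM in the adult control, 72.5, 81.2 and 263 in the 24 h, 48 h and 96 h libraries, and 165 in P14. The 5 intervals did not overlap, and the 24 h and 48 h libraries lay far below the rest. Cebpa was 4.86-fold lower than in the control at 24 h (ratio 0.206, 0.194 to 0.219), 4.34-fold lower at 48 h (0.231, 0.218 to 0.244), 1.34-fold lower at 96 h and 2.14-fold lower in P14. Over the alternative settings the ratio ran from 0.205 to 0.214 at 24 h and from 0.229 to 0.245 at 48 h. Cebpb stood at 298 CPM in the adult control, 628, 487 and 250 in the 24 h, 48 h and 96 h libraries, and 247 in P14. It was highest at 24 h, and its 96 h and P14 intervals overlapped. Cebpb was 2.10-fold higher than in the control at 24 h (2.03 to 2.18) and 1.63-fold higher at 48 h (1.57 to 1.69). Its P14 ratio of 0.829 was 1.01 with TMM scaling, so no direction is given for it.

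The sum of both genes varied less than either alone, from 412 CPM in P14 to 700.4 at 24 h, with 650.5 in the adult control. The ratio of Cebpb to Cebpa UMIs, read across libraries since 3′ counts do not rank genes, was 0.847 (0.812 to 0.884) in the adult control, 8.66 (8.20 to 9.16), 6.00 (5.70 to 6.32) and 0.948 (0.904 to 0.994) in the 24 h, 48 h and 96 h libraries, and 1.5 (1.46 to 1.54) in P14. In these hepatocytes it was thus nearer the control at 96 h than at 24 h and 48 h, but its interval lay above that of the control. In barcodes with hepatocyte transcripts and few mitochondrial UMIs, described further on, Cebpb and Cebpa stood at 452 and 258 CPM at 96 h. In the control they stood there at 469 and 482 CPM. In droplets without a cell they stood at 367 and 306 CPM at 96 h, against 294 and 410 in the control. In both sets the ratio of Cebpb to Cebpa at 96 h was thus further above the control. Both promoter windows are shown because these genes had the opposite course. They are chr7:35119043-35119342 for Cebpa and chr2:167688665-167688964 for Cebpb, with the TATA box string TATAAA in capitals, found in 13.6% of all windows. In Cebpa it begins 30 bases before the start, and in Cebpb 21 bases after it. No other string searched (those of FOXA, ONECUT, HNF4A, NR5A2, C/EBP and HNF1) occurs in either window. The Cebpa window was 67.3% G or C and the Cebpb window 80.7%, against a median of 52.7% over all windows.
Cebpa: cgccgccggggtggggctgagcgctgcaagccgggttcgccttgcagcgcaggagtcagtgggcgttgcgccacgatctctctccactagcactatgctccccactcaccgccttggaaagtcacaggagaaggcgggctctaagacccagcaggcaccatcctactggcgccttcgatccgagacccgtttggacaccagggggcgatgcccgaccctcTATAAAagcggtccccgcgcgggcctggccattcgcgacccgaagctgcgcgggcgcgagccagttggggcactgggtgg
Cebpb: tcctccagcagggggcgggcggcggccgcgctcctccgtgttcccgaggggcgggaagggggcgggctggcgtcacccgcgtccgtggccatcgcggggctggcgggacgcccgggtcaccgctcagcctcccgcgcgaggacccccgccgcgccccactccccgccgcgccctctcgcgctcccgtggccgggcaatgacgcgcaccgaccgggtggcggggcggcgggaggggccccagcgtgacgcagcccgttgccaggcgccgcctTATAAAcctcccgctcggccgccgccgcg

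The shift was also visible cell by cell. With each hepatocyte thinned to 5000 UMIs, 24.2% (21.5% to 27.1%) of adult control cells had a UMI of Cebpa only, 18.1% (15.6% to 20.7%) of Cebpb only and 47.2% of both. At 24 h 2.56% had Cebpa only and 67.2% (64.4% to 69.9%) Cebpb only, and at 48 h 2.64% and 62.9% (59.2% to 66.4%). At 96 h the shares were 25.03% and 23.5%, and in P14 18.5% and 31.1%. Most hepatocytes at 24 h and 48 h were thus in the class with Cebpb alone detected at this depth, which held 31.1% of cells or less elsewhere. Without thinning, 94.9% of adult control hepatocytes had a Cebpa UMI against 61.5% at 24 h and 78.7% at 48 h, and 93.6% had a Cebpb UMI against 99.5% and 99.9%.

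**Figure D3:**
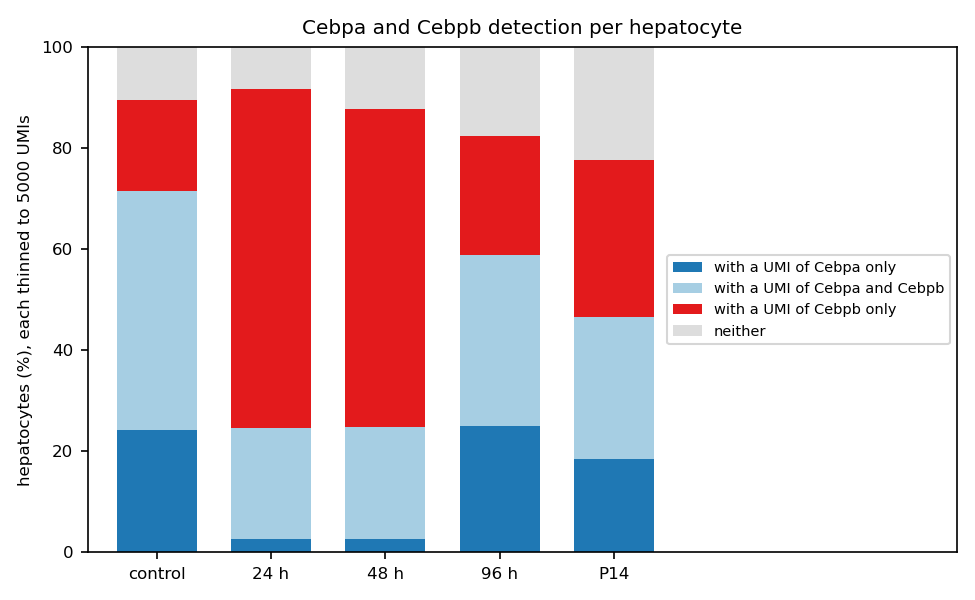
Share of hepatocytes (y axis, percent; each cell thinned to 5000 UMIs) with a UMI of Cebpa only, of both genes, of Cebpb only or of neither, in the 5 libraries (x axis). The Cebpb-only class takes 67.2% at 24 h and 62.9% at 48 h against 18.1% in the adult control.

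The myeloid list moved with Cebpb, which myeloid cells also express: in myeloid-like barcodes it stood at 741 CPM in the adult control, 1299, 1086 and 773 in the 24 h, 48 h and 96 h libraries, and 646 in P14. Within the hepatocytes the leading gene of that list was S100a9, at 52.4 CPM at 24 h and 106 at 48 h against 5.63 in the control. Its part in the Cebpb ratio was not tested.

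The 3 FOXA genes differed in their course. Foxa1 (chr12:57540628-57546916, minus strand) stood at 44.7 CPM in the adult control, 18.9, 12.5 and 28.3 in the 24 h, 48 h and 96 h libraries, and 5.08 in P14, with no overlap between any intervals. It was below the control in all 4 libraries and past 1.5-fold in each, with ratios of 0.423 (0.371 to 0.483), 0.280 (0.241 to 0.325), 0.633 (0.555 to 0.721) and 0.114 (0.0990 to 0.130) in the same order. The 96 h ratio was 0.903 among cells with at least 5% of UMIs from Alb, Apoa1 and Ttr (47 in the control and 545 at 96 h). The P14 level was 8.80-fold below the control, and under every alternative setting tried the P14 ratio lay between 0.0886 and 0.171. In barcodes with under 5% mitochondrial UMIs the P14 ratio was 0.515 (0.118 to 1.79), on 4 UMIs in P14 and 10 in the control. In droplets without a cell it was 0.110. The Foxa1 window (chr12:57546062-57546361, minus strand) is shown because it holds a string of its own protein family: capitals mark GTAAACA, the reverse complement of TGTTTAC, 141 bases before the start. TGTTTAC or TGTTTGC was found in 8.48% of all windows, and among the members also in a window of Prox1.
Foxa1: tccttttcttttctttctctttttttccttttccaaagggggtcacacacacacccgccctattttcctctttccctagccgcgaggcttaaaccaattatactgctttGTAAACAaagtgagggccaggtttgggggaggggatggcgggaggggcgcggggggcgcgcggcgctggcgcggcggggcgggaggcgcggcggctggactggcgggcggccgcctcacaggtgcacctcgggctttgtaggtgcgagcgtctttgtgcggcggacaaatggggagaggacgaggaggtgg

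Foxa2 (chr2:148042877-148046969, minus strand) stood at 83.6 CPM in the adult control, 56.6, 33.9 and 98.1 in the 24 h, 48 h and 96 h libraries, and 63.3 in P14. Its low point was 48 h, at a ratio of 0.405 (0.368 to 0.446), and 96 h was the only library above the control, at 1.17 (1.08 to 1.27), or at 0.888 among cells of 10% to 20% mitochondrial UMIs. Foxa3 (chr7:19013284-19023538, minus strand) stood at 141 CPM in the adult control, 149, 105 and 113 in the 24 h, 48 h and 96 h libraries, and 56.1 in P14. The adult control and 24 h overlapped, and P14 was past 1.5-fold at a ratio of 0.399 (0.377 to 0.422). As a share of all Foxa UMIs, Foxa1 made up 16.6% in the adult control, 8.42%, 8.28% and 11.8% in the 24 h, 48 h and 96 h libraries, and 4.08% in P14. Foxa2 made up 31.1%, 25.2%, 22.4%, 41.0% and 50.9% in the same order, so its share was highest in P14 and at 96 h. The summed level of the 3 genes was 269 CPM in the adult control, 225, 151 and 239 in the 24 h, 48 h and 96 h libraries, and 124.5 in P14.

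Onecut1 (chr9:74861921-74891781, plus strand) had the widest excursion after PHx. It stood at 19.0 CPM in the adult control (253 UMIs), 6.87 at 24 h (134 UMIs), 7.06 at 48 h (147 UMIs), 56.4 at 96 h (758 UMIs) and 12.9 in P14 (836 UMIs). The 24 h and 48 h libraries were lowest and overlapped, and 96 h stood above all others. Against the control the ratio was 0.361 (0.291 to 0.447) at 24 h and 0.371 (0.301 to 0.457) at 48 h. At 96 h it was 2.97 (2.57 to 3.44), and over the alternative settings the 96 h ratio ran from 1.89 to 3.06. The summed cholangiocyte list was also highest at 96 h, at 188 CPM against 35.6 in the control, with 156 CPM of it from Spp1 and with Epcam, Krt19 and Cldn7 among the genes at 0. Its part in the Onecut1 difference was not tested. The lowest 96 h ratio, 1.89, came from cells with at least 5% of UMIs from Alb, Apoa1 and Ttr, of which the control had 47 and the 96 h library 545. At 5000 UMIs per cell 6.49% of adult control hepatocytes had an Onecut1 UMI, against 3.08%, 3.62% and 16.5% in the 24 h, 48 h and 96 h libraries and 5.41% in P14. Its promoter window (chr9:74861671-74861970, plus strand; 73.0% G or C) is shown as that of the member with the largest difference between successive times, and it holds none of the 7 kinds of string searched.
Onecut1: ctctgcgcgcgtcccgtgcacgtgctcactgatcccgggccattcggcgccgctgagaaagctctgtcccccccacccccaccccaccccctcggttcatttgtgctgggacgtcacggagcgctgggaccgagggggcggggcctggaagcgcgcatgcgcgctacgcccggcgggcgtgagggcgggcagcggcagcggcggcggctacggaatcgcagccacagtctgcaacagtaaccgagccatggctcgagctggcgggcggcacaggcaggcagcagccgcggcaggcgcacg

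Prox1 (chr1:190118035-190170714, minus strand), a homeodomain factor that binds HNF4A and NR5A2 and restrains their activity, stood at 161 CPM in the adult control, 211, 152 and 117 in the 24 h, 48 h and 96 h libraries, and 115 in P14. In the hepatocytes of the rule it was highest at 24 h, where Cebpb and Foxa3 also had their highest level. In barcodes with hepatocyte transcripts and under 5% mitochondrial UMIs it stood instead at 85.8 CPM in the control and 30.1 at 24 h, and in droplets without a cell at 147 and 86.4. None of its ratios to the control passed 1.5-fold. From 24 h to P14 they were 1.31 (1.24 to 1.38), 0.946 (0.895 to 0.999), 0.727 (0.681 to 0.777) and 0.713 (0.679 to 0.748). The 96 h ratio passed the line at 0.660 among cells of 10% to 20% mitochondrial UMIs. With at least 5% of UMIs from Alb, Apoa1 and Ttr the 96 h and P14 ratios lay on the other side of the control, at 1.16 and 1.24. That gate kept 47 of 925 control hepatocytes, 545 of 771 at 96 h and all 2106 in P14, so it changed mostly the control. The antisense gene Prox1os, which overlaps it, had 17.4 CPM in the adult control, 6.71, 5.81 and 8.26 in the 24 h, 48 h and 96 h libraries, and 12.6 in P14, and thus did not share the 24 h maximum.

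Between successive times 2 members were called from 24 h to 48 h and 5 from 48 h to 96 h. At 48 h over 24 h, 0 members were called higher and 2 lower, Foxa1 at 0.663 and Foxa2 at 0.599 (0.544 to 0.658), where 13.9% of all genes were called (5.9% higher and 8.02% lower). With TMM scaling Foxa1 missed the line. Hnf4a, Foxa3, Prox1 and Cebpb were lower by less, at 0.682, 0.703, 0.722 and 0.776, where the median over all genes was 0.952. At 96 h over 48 h, 4 members were called higher and 1 lower, where 24.2% of all genes were called (15.2% higher and 9.08% lower). Onecut1 was 7.99-fold higher (6.69 to 9.60), Cebpa 3.24-fold (3.06 to 3.44), Foxa2 2.90-fold (2.64 to 3.18) and Foxa1 2.26-fold (1.92 to 2.65), and Cebpb was 1.95-fold lower. Hnf4a, Foxa3, Prox1 and Nr5a2 lay between 0.769 and 1.27. These 2 comparisons share the 48 h library, as the 4 above share the control.

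Cells with at least 1 UMI of Mki67 or Top2a, genes expressed in dividing cells, made up 1.62% of hepatocytes in the adult control (15 cells) and 28.0% in P14 (589). After PHx they made up 30.8% (360), 55.6% (400) and 17.6% (136) of the 24 h, 48 h and 96 h libraries. These shares were not read at equal depth. With status read at 5000 UMIs, 8 cells were positive in the adult control, 188, 256 and 69 in the 24 h, 48 h and 96 h libraries, and 281 in P14. Within a library few members passed 1.5-fold between positive and negative cells. At 24 h 0 members were called higher and 2 lower in positive cells, where 11.6% of all genes were called (10.7% higher and 0.914% lower). Cebpa stood at 55.2 CPM in positive and 82.8 in negative cells (ratio 0.666, 0.592 to 0.749), and Onecut1 at 4.96 and 7.99 (0.621, 0.412 to 0.919). The Cebpa ratio sat on the line itself and missed it under 4 of 15 alternative settings. Among the 15, the 2-fold call and the absence of a minimum level could not change the ratio. The Onecut1 ratio missed it with 10% to 20% mitochondrial UMIs, at 0.710. At 48 h 0 members were called, where 18.5% of all genes were (16.6% higher and 1.88% lower). Among the cells of 10% to 20% mitochondrial UMIs (83 of 116 positive), the 48 h ratio was 4.09 for Onecut1, 3.77 for Foxa1 and 1.89 for Foxa2. These 3 ratios rest on few negative cells and have no interval. Over all 48 h hepatocytes, with 0.204 Onecut1 and 0.363 Foxa1 UMIs per cell, they were 1.04 (0.737 to 1.49), 1.29 (0.989 to 1.70) and 1.48. At 96 h and in P14 0 were called as well, where 19.9% (15.9% and 3.96%) and 8.92% (8.87% and 0.046%) of all genes were. In the adult control Onecut1 was called lower on 3 UMIs in the 15 positive cells, where 36.9% of all genes were called (24.5% higher and 12.4% lower).

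Foxa2 and Foxa3 differed in the same direction in all 5 libraries, and with TMM scaling Cebpa (0.628 to 0.904) and Onecut1 (0.558 to 0.991) did as well, both lower in positive cells. Foxa2 was higher in positive cells, with ratios of 1.41 (0.938 to 2.03) in the adult control, 1.16 (1.02 to 1.31), 1.48 (1.25 to 1.75) and 1.31 (1.15 to 1.48) in the 24 h, 48 h and 96 h libraries, and 1.47 (1.38 to 1.56) in P14. Foxa3 was lower, with ratios of 0.942 (0.647 to 1.33), 0.729 (0.673 to 0.789), 0.872, 0.842 and 0.942 (0.874 to 1.01) in the same order, and the intervals of the adult control and P14 included 1. Both directions were kept with TMM scaling, where Foxa2 ran from 1.09 to 1.31 and Foxa3 from 0.687 to 0.833, and none of these ratios passed 1.5-fold. The median ratio over all genes lay between 1.05 and 1.14, so the Foxa2 ratios exceeded that of a typical gene by less than their distance from 1. Cebpb was 1.30 (1.21 to 1.41) and Prox1 1.38 (1.23 to 1.55) at 96 h, and below 1 at 24 h and 48 h. Foxa1 was 1.49 (1.21 to 1.84) at 24 h, just short of the line, and passed it under some alternative settings, at up to 1.76 with status read at 5000 UMIs. Hnf4a stood between 0.867 and 1.18 and Nr5a2 between 0.876 and 1.19.

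**Figure D4:**
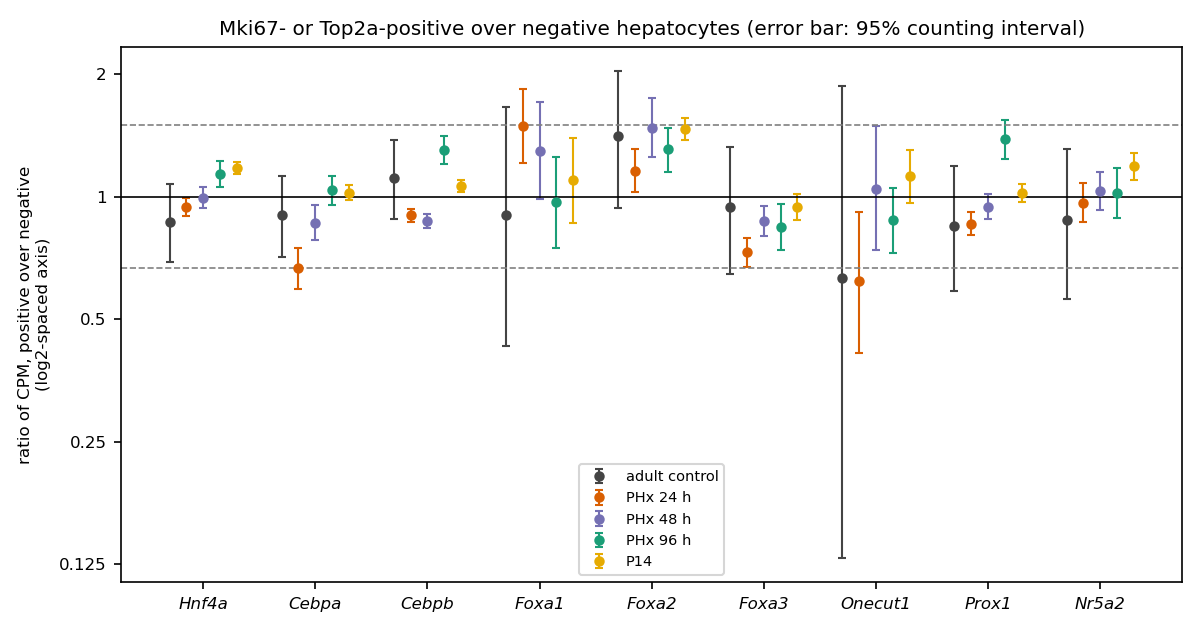
Ratio of each factor's CPM in Mki67- or Top2a-positive over negative hepatocytes (y axis, log2-spaced) in each of the 5 libraries, with 95% counting intervals and dashed lines at 1.5-fold. Foxa2 lies above 1 and Foxa3 below 1 in all 5, and Cebpa at 24 h sits on the lower line at 0.666.

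Positive cells were deeper than negative ones in the adult control, with medians of 21676 and 18417 UMIs, and in the 3 operated libraries, with medians of 23732 and 18175.5 UMIs at 24 h, 41820 and 30149 at 48 h and 28114.5 and 20858 at 96 h. In P14 the medians were 38903 and 38929. At 96 h the positive cells were also more pericentral, with 72.9% of zone marker UMIs from pericentral genes against 44.4% in negative cells. These shares were 81.5% and 74.5% at 24 h and 59.7% and 55.2% in the adult control. They ran the other way at 48 h (82.9% and 84.4%) and in P14 (78.7% and 81.2%). Positive and negative cells were not matched by zone, and its part in their ratios was not tested. In negative cells alone, set against those of the control, Cebpa stood at 0.235 at 24 h and 0.252 at 48 h, Cebpb at 2.19 and 1.78, Onecut1 at 0.418 and 0.359, and Onecut1 at 96 h at 3.03. Foxa2 at 24 h (0.645) and Onecut1 in P14 (0.654) were past the line there, which they were not over all hepatocytes.

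Hepatocytes of each library were also ordered by the share of pericentral UMIs among the UMIs of 9 pericentral and 8 periportal genes and cut into 3 equal groups, called terciles. The terciles are ranges of 1 score and not cell types, and from 82 cells at 96 h to 424 in P14 lay within 2 points of a cut. The median share differed between libraries, with 37.1% in the adult control, 73.4%, 86.9% and 23.8% in the 24 h, 48 h and 96 h libraries, and 83.9% in P14, so a tercile of 1 library is not that of another. At 96 h 2 members passed 1.5-fold between the pericentral and periportal terciles, where 16.5% of all genes did. Cebpb was 1.96-fold higher (1.80 to 2.15) in the pericentral tercile, at 334 against 170 CPM, and Onecut1 stood at 44.5 against 68.9 CPM (ratio 0.645, 0.538 to 0.772). No member passed it in the other 4 libraries, where 11% of genes did in the adult control, 11.3% and 11.5% in the 24 h and 48 h libraries, and 7.35% in P14.

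The slope of Cebpb ran the same way in 4 libraries, with ratios of 1.47 (1.36 to 1.58) in the adult control and of 1.24 and 1.18 in the 24 h and 48 h libraries, and was 0.937 (0.902 to 0.974) in P14. Onecut1 was below 1 in all 5, at 0.802, 0.880, 0.760, 0.645 and 0.743 from the adult control through 96 h to P14, and its intervals included 1 in the first 3 of these libraries. Nr5a2 had its steepest slope in the adult control at 1.37 (1.21 to 1.56), and lay between 1.02 and 1.15 in the other 4. Cebpa was flat in the adult control at 1.04 (0.969 to 1.11) and lower in the pericentral tercile at 24 h, at 0.735 (0.643 to 0.839). Prox1 was higher in the pericentral tercile at 96 h, at 1.34 (1.18 to 1.52), and lay between 0.914 and 1.13 in the other 4 libraries.

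Of the differences from the control called over all hepatocytes, 3 fell short of 1.5-fold in a tercile: Cebpb and Nr5a2 at 48 h and Foxa1 at 96 h. These comparisons match terciles by rank and not by zone. The cuts lay at 28.7% and 55.5% in the adult control and at 55.8% and 90.1% at 24 h. They lay at 72.6% and 93.5% at 48 h, 14.7% and 53.4% at 96 h, and 73.7% and 90.6% in P14. Set against the control tercile of the same rank, Cebpa was 4.21-fold lower in the periportal, 4.76-fold in the middle and 5.95-fold in the pericentral tercile at 24 h. Onecut1 at 96 h was 3.27-fold (2.58 to 4.18), 3.06-fold (2.38 to 3.98) and 2.63-fold (2.02 to 3.45) higher in the same order. Cebpb at 24 h was 2.26-fold, 2.27-fold and 1.91-fold higher. At 48 h Cebpb was 1.82-fold, 1.70-fold and 1.47-fold higher, short of the line in the pericentral tercile. Nr5a2 at 48 h stood at 0.757, 0.676 and 0.566, past the line in the pericentral tercile alone. Foxa1 at 96 h stood at 0.806 (0.643 to 1.01) in the periportal tercile, where the interval reached 1, and at 0.571 and 0.552 in the middle and pericentral ones. Members not called over all hepatocytes passed the line in some terciles: Foxa2 at 24 h in the middle and pericentral (both 0.650), Nr5a2 at 24 h in the pericentral (0.627), Prox1 at 96 h in the periportal (0.653), and Cebpb (0.658) and Onecut1 (0.626) in the pericentral tercile of P14.

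**Figure D5:**
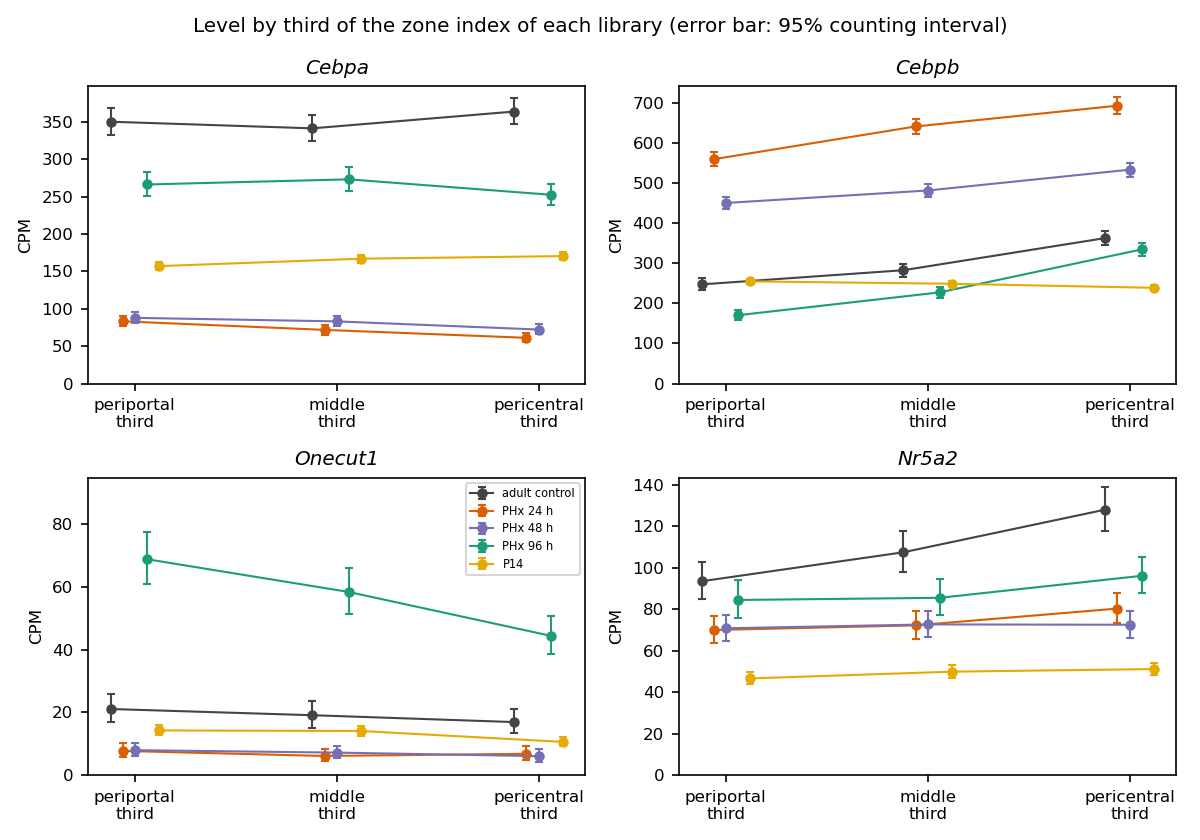
Level (y axis, CPM) of Cebpa, Cebpb, Onecut1 and Nr5a2 in the periportal, middle and pericentral tercile of the hepatocytes of each library (x axis), with 95% counting intervals and 1 line per library. Cebpb climbs from 170 to 334 CPM and Onecut1 descends from 68.9 to 44.5 CPM at 96 h.

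Counts of called genes in the lists that follow are to be read against the shares of all genes called. Higher calls made up 20.1%, 18.5% and 13.7% of all genes in the 24 h, 48 h and 96 h libraries and 15.1% in P14, and lower calls 18.8%, 21%, 8.04% and 33% in the same order. Of a list of 32 other liver transcription factors, 31 were tested against the control: 4 were called higher and 11 lower at 24 h (median ratio 0.687), 2 and 16 at 48 h (0.665), 0 and 6 at 96 h (0.817) and 3 and 17 in P14 (0.624). At 96 h the 6 of 31 called were near the 21.8% of all genes called either way. All 6 were lower calls, however, which made up 8.04% of all genes. The largest differences at 24 h were those of Tef (0.256), a clock-driven bZIP factor, Cebpd (3.50), a further C/EBP factor of the acute phase, Ppara (0.428), the fasting-response receptor, and Tcf7l2 (0.487), an effector of Wnt signalling. At 48 h they were Tef (0.138), Hhex (0.335), Cebpd (2.86) and Esrra (0.358). At 96 h they included Cebpd (0.406), Zhx2 (0.577) and Rxrb (0.634). In P14 they were Hhex (0.162), Zbtb20 (0.244) and Zhx2 (0.249), both repressors of Afp, and Xbp1 (0.289). Cebpd thus stood on the side of Cebpb at 24 h and 48 h, from a control level of 7.88 CPM.

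Known targets of the members did not share 1 direction, and their counts stand beside 38.9%, 39.5%, 21.8% and 48.2% of all genes called either way, from 24 h through to P14. Of 13 HNF4A targets, 4 were called higher and 4 lower at 24 h, 2 and 5 at 48 h, 3 and 1 at 96 h and 3 and 5 in P14. Cyp8b1, the sterol 12-alpha-hydroxylase of bile acid synthesis, stood at 0.218, 0.181, 0.961 and 0.561 of the control, Otc of the urea cycle at 0.452, 0.337, 0.978 and 1.06, and Ambp at 1.99, 2.84, 1.84 and 2.91. Cyp7a1, the rate-limiting enzyme of bile acid synthesis, stood at 1.78, 8.86, 7.68 and 3.16, from 22.2 CPM in the control. With 20.1% of all genes called higher and 18.8% lower at 24 h, of 7 NR5A2 targets 1 was called higher and 5 lower at 24 h, 1 and 4 at 48 h, 1 and 0 at 96 h and 5 and 2 in P14. Besides Cyp7a1 and Cyp8b1, which are on both lists, Abcg8 of sterol export stood at 0.285, 0.224, 0.822 and 2.51. In P14 Nr5a2 was at its lowest while the median of its targets was 2.51.

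Of 10 C/EBP targets, 7 were called higher and 0 lower at 24 h, where 20.1% and 18.8% of all genes were, 6 and 2 at 48 h, 1 and 3 at 96 h and 2 and 4 in P14. The largest differences were those of acute phase genes: Lcn2 stood at 67.4, 45.7, 3.17 and 0.709 of the control, Orm1 at 7.16, 9.29, 1.45 and 0.00164, Saa1 at 8.46, 12.3, 0.433 and 0.00994, and Saa2 at 15.4, 23.1, 0.627 and 0.00398. The metabolic C/EBP target Pck1, a gluconeogenic enzyme, stood at 0.777, 0.555, 0.538 and 0.971. G6pc and Tat, also on this list and given below, lay above the control at 24 h and 48 h. These metabolic targets thus did not share 1 direction. Pck1, Tat and G6pc are each on more than 1 list and were counted in each. Of 6 FOXA and ONECUT targets 5 were matched by symbol, and 4 were tested after PHx and 5 in P14: 2 were called higher and 0 lower at 24 h, 2 and 1 at 48 h, 1 and 1 at 96 h and 3 and 1 in P14, numbers too small to set against the 21.8% to 48.2% of all genes called. Igfbp1, a secreted binding protein of insulin-like growth factors, stood at 19.9, 9.97, 1.82 and 88.0002, Tat, which degrades tyrosine, at 2.35, 1.27, 0.896 and 0.398, and G6pc, which releases glucose, at 1.20, 1.69, 1.25 and 7.12. Afp, the fetal albumin relative, was called higher in P14, at 668 CPM against 0.601 CPM (8 UMIs) in the control.

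In barcodes outside the rule some members had the course seen in hepatocytes of the rule and others did not. Barcodes with hepatocyte transcripts and under 5% mitochondrial UMIs numbered 132 in the adult control, 303, 152 and 600 in the 24 h, 48 h and 96 h libraries, and 96 in P14. In them Cebpa stood at 482 CPM in the adult control, 52.7, 89.4 and 258 in the 24 h, 48 h and 96 h libraries, and 247 in P14, or 9.13-fold lower than the control at 24 h. Cebpb stood at 469, 722, 698, 452 and 598 CPM in the same order, 1.54-fold higher (1.39 to 1.71) at 24 h. Onecut1 was 3.55-fold higher at 96 h (1.59 to 9.83), from 6 UMIs in the control. In the control the median depth of these barcodes was 6034.5 UMIs, against 18527 in the hepatocytes of the rule. Droplets without a cell, which measure free RNA, held 1328 UMIs on average in the control. They held 670, 290 and 795 at 24 h, 48 h and 96 h. Free RNA was not subtracted from these barcodes, and its part was not tested. Several members lay further from the control in these barcodes after PHx than in the hepatocytes of the rule. At 24 h, 48 h and 96 h Hnf4a stood at 0.487, 0.337 and 0.498 of the control, Nr5a2 at 0.2495, 0.267 and 0.397, and Foxa2 at 0.183, 0.109 and 0.553. Prox1 stood at 0.399 at 48 h and 0.251 at 96 h. Prox1 at 24 h lay on the other side of the control, at 0.351 (0.259 to 0.476) there against 1.31 in the hepatocytes of the rule. The same held for Foxa2 at 96 h, at 0.553 (0.385 to 0.812) against 1.17. Cebpb in P14, for which no direction was given in the hepatocytes of the rule, stood at 1.28 (1.11 to 1.46) against 0.829. Foxa2 and Onecut1 in P14 (1.08 and 1.29) also differed in direction, with intervals that included 1. Foxa3 at 24 h stood at 0.812, against 1.06 (0.999 to 1.12) in the hepatocytes of the rule, where the interval included 1.

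Droplets without a cell (barcode ranks past 20000 and up to 60000) held the members too: Cebpa stood at 410, 76.5, 109, 306 and 206 CPM and Cebpb at 294, 804, 768, 367 and 486. The ratio to the control differed in direction from that of the hepatocytes for Prox1 at 24 h (0.586), Foxa2 at 96 h (0.742) and Cebpb at 96 h (1.25). Foxa3 at 24 h stood at 0.888 and Cebpb in P14 at 1.66, where the hepatocytes gave no clear direction. The free RNA came to 290.0 to 1328 UMIs per droplet. With it subtracted, the Cebpa ratio was 0.209 at 24 h, the Cebpb ratio 2.08 and the Onecut1 ratio at 96 h 2.95, so these differences were of nearly the same size without it. Free RNA also adds to shares of cells with a UMI. Thinning keeps its fraction in each barcode, which is larger where barcodes of the same library are shallower. The lymphoid-like shares that follow are thus not the free RNA share of hepatocytes. At 1500 UMIs per cell 33.8% of adult control hepatocytes (median depth 18527 UMIs) and 14.1% of lymphoid-like barcodes (5882) had a Hnf4a UMI, and for Cebpa these shares were 30.2% and 14.8%. At 24 h Cebpa was found in 8.72% and 2.00% and Cebpb in 53.4% and 25.3%. Onecut1 at 96 h was found in 6.36% and 0.620%. Each of these hepatocyte shares lay above that of the lymphoid-like barcodes, in which Cebpb can also be expressed.

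The genes whose course over the 5 libraries was most like that of a member were found among 3826 genes with at least 20 CPM in every library, by the Euclidean distance between centred log2 levels. Nearest to Hnf4a were Rc3h1 (distance 0.120), Vps26a (0.140) and Nadk (0.167), and nearest to Cebpa were Klkb1 (0.524), Uox (0.542) and Cyp8b1 (0.550). Nearest to Cebpb were Cbx5 (0.174), St3gal1 (0.229) and Ptpn1 (0.302). The nearest gene was Hhex to Foxa1 (0.363), Cyp3a25 to Foxa2 (0.225), Zfp706 to Foxa3 (0.0873), Itpr1 to Prox1 (0.188) and Smarcd2 to Nr5a2 (0.0968). No gene compared lay close to Onecut1, with Aldh1b1 nearest at 1.19. Onecut1 itself reached 20 CPM only at 96 h, and Foxa1 only in the adult control and at 96 h. Genes of similarly low level were thus not among those compared. Among the members themselves Hnf4a and Nr5a2 were the nearest pair (0.562) and Cebpb and Onecut1 the farthest (3.53), with Cebpa and Cebpb next at 3.11.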

How the data were processed

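Single-cell libraries of mouse liver, 1 per group, were compared as 5 deposited sparse matrices. The authors deposited raw, unnormalized UMI counts, whole numbers for each gene in each barcode, and each matrix lists 6794880 barcodes, cells and empty droplets alike. Per the file headers, version 3.0.2 of the counting software wrote them. The submitters' processing notes name bcl2fastq 2.17.1.14, Cell Ranger, Seurat 3.1 and the build mm10, with no role or order. Whether counting used the strand is not given in the sources used here. No column belonged to another series.

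Hepatocyte barcodes were summed per library with Python 3.11.15 (scipy 1.17.1), and CPM, exact Poisson intervals, exact conditional binomial intervals of ratios and Clopper-Pearson intervals of shares were computed. Depth was 80927744 to 136110607 UMIs per library. With 1 library per group no test and no p-value was possible, and calls at 1.5-fold among genes reaching 5 CPM in at least 1 of the libraries compared were made on the whole table. Ratios and calls were tested on simulated data. Doublets were left in, and an alternative removed the highest Scrublet scores (scanpy 1.11.5, 20 of 925 adult control hepatocytes). To compare shares of cells, each cell was thinned to 1 fixed number of UMIs (5000 or 1500). Free RNA was read from barcode ranks past 20000 and up to 60000. Barcodes were called lymphoid-like or myeloid-like with 1500 UMIs or more, under 10% mitochondrial UMIs and at least 4 different marker genes. Alternatives were other gates, scalings (edgeR 4.0.16 TMM factors, all UMIs, without the 50 most abundant genes), cell means, a CPM pseudocount of 1, a 2-fold call, a stricter positive status and depth matching.

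All 9 members were named. Of the other transcription factors the 4 largest tested ratios per comparison were named, of the targets up to 4 called per list, and 3 genes most like Hnf4a, Cebpa and Cebpb and 1 most like each other member. Some genes that this rule selects are not reported here. Pck1, S100a9, Hnf4aos and Prox1os were named after their values were seen. The members, lists and rules were chosen with earlier results of these data known. Gene positions come from GENCODE M21 on GRCm38, the same assembly as mm10, and promoter windows from RefSeq GRCm38.p6, which held 14 windows for 9 of 9 members.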

Additional observations from a re-analysis of the deposited data

How the results depend on the processing

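No paired analysis was possible because each group is 1 library and the labels share no replicate numbers. Of 28 called ratios of members, all 28 kept their direction under every alternative that could be computed. The 2-fold call and the absence of a minimum level leave a ratio as it is, so no direction could change there. The 28 include Onecut1 in the positive cells of the adult control, at 0.631 (0.129 to 1.87) on 3 UMIs. It had 9 alternatives, without other gates or a stricter positive status, so its kept direction says little. With free RNA subtracted all 28 stayed past 1.5-fold, with TMM factors 25 of 28, with the mean over cells of CPM per cell 25, without the 50 most abundant genes 25 and with 10% to 20% mitochondrial UMIs 25 of 27. The numbers of members past the line moved as follows. In positive over negative cells at 24 h the 2 members became 1 with 10% to 20% mitochondrial UMIs, 1 by the cell mean, 1 with CPM + 1 and 0 at 2-fold, and 3 with a minimum of 10000 UMIs, with weighted negative cells, with at least 2 UMIs and with status read at 5000 UMIs. At 48 h the 0 members became 3 with 10% to 20% mitochondrial UMIs, 2 with negative cells weighted to the UMI bins of positive cells, 1 over all UMIs and 1 with at least 2 UMIs for a positive status. In P14 the 0 members became 1 with at least 2 UMIs and 1 with status read at 5000 UMIs. For 48 h over 24 h the 2 members became 1 without the 50 most abundant genes, with TMM factors, by the cell mean and with CPM + 1, 0 at 2-fold and 3 with 10% to 20% mitochondrial UMIs. For 24 h over the control the 4 members became 6 with 10% to 20% mitochondrial UMIs and with a minimum of 10000 UMIs. For 48 h over the control the 7 members became 4 at 2-fold, and 6 over all UMIs, without the 50 most abundant genes, with TMM factors and by the cell mean. For P14 over the control the 5 members became 6 with 10% to 20% mitochondrial UMIs and with free RNA subtracted, and 4 without the 50 most abundant genes, with TMM factors and at 2-fold. For 96 h over 48 h the 5 members became 4 at 2-fold. For 96 h over the control the 2 members became 4 with 10% to 20% mitochondrial UMIs (53 cells at 96 h, 87 in the control), and 1 with at least 5% of UMIs from Alb, Apoa1 and Ttr or at 2-fold. The causes were not tested. Among cells with at least 5% of UMIs from Alb, Apoa1 and Ttr, Prox1 stood above the control at 96 h (1.16) and in P14 (1.24), Foxa3 at 96 h (1.12), and Cebpb (1.08) and Foxa2 (1.01) in P14, while Onecut1 in P14 passed the line (0.412) and Hnf4a no longer did (0.811). That gate left 47 cells in the control, 545 at 96 h and 2106 in P14. It left 6 cells at 24 h and 2 at 48 h, so no ratio to these was computed, and alternatives that left a group under 20 cells were not run. Counts were low for Onecut1 and Foxa1 in small groups, and 1 library per group limits every comparison.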
